A study of Mus musculus with 20 samples.

Results

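The keratin-associated protein genes of the mouse, whose symbols start with Krtap, were followed in abdominal skin under high fat feeding and imiquimod treatment. Membership was set by the symbol alone: 51 of the 22180 genes tested carried a Krtap symbol on an array feature that named exactly 1 gene. Where a gene had several such features the one with the highest mean over the 20 arrays stood for it, which applied to 1 member, Krtap5-1. A further 4 Krtap symbols occurred only on features shared with other genes and were not analysed here. The animals were C57/B6 mice aged 9 weeks, fed either a control chow, CD, or a diet high in fat, HFD. A daily dose of 62.5 mg of 5% imiquimod cream (IMQ) or of vehicle was put on shaved abdominal skin for 5 days, and tissue was collected 24 h after the last dose. This gave 5 mice in each of 4 groups, named CD-vehicle and CD-IMQ for chow and HFD-vehicle and HFD-IMQ for the fat-rich diet. Each mouse, a biological replicate, had 1 array. How long the diets had been given before treatment is not given in the sources used here. Imiquimod activates Toll-like receptor 7 and is widely used to raise a psoriasis-like inflammation in mouse skin.

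Keratin-associated proteins form the matrix of the hair shaft. They are made late in the differentiation of cortex and cuticle cells of growing follicles, after the hair keratins, and are cross-linked with the keratin filaments through disulfide bonds. Members rich in cysteine are called high-sulfur proteins, and small members rich in glycine and tyrosine are called high glycine-tyrosine proteins. Families 6, 7, 8, 19, 20, 21 and 22 were taken as high glycine-tyrosine from general knowledge of the family, which gave 15 members. Another 32 members were taken as high sulfur, and Krtap16-3, Krtap28-13, Krtap31-1 and Krtap31-2 were left unclassed. Proteins with still more cysteine are called ultra-high sulfur. They were not separated here, so high sulfur below includes them. All 51 members matched the RefSeq gene table of assembly GRCm38.p6. That table places 23 of them on chromosome 16 and 19 on chromosome 11, with 5 on chromosome 7, 3 on chromosome 10 and 1 on chromosome 1. Many members lie near others on the same chromosome and resemble each other in sequence, so a probe set for one may also read a near relative, which was not tested.

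RefSeq promoters, 250 bases before to 50 bases after the annotated start, were held for 46 of the 51 members. The letters TATAAA, the core of the TATA box, occurred on either strand in 39 of the 46 (84.8%) and in 13.6% of all 32851 promoters of the same length. On the coding strand, 28 of the 46 (60.9%) had the first letter of TATAAA 40 to 20 bases before the start, against 1.99% of all promoters. CAATAAA, a binding core of HOX13-class proteins, was in 0 of the 46 and in 4.6% of all promoters, and CTTTGA, a core of LEF1/TCF sites, was in 12 (26.1%) and in 16% of all. Both strands were searched for each motif, and matches of different motifs may overlap. TATAAA was in 25 of 28 high-sulfur, 10 of 14 high glycine-tyrosine and 4 of 4 unclassed promoters. A match describes letters and was not tested as a binding site. The 150 bases before the start are shown for 4 members, with TATAAA in capitals. Krtap4-2 and Krtap24-1 had the largest called falls under imiquimod, and Krtap19-4 and Krtap22-2 had the highest mean over all arrays among the high glycine-tyrosine members. They lie on the minus strand of GRCm38.p6 at chr11:99635085-99635234, chr16:88612280-88612429, chr16:88885090-88885239 and chr16:89010760-89010909, and are written 5′ to 3′ on the coding strand.
Krtap4-2: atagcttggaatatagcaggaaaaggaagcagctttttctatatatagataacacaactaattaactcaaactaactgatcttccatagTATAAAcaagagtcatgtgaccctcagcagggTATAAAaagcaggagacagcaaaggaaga
Krtap24-1: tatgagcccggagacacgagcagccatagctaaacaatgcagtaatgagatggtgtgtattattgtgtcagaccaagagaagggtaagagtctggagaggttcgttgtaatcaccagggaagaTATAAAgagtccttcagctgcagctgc
Krtap19-4: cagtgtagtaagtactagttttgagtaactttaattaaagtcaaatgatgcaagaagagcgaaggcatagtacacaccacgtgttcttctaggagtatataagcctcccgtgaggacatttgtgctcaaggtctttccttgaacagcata
Krtap22-2: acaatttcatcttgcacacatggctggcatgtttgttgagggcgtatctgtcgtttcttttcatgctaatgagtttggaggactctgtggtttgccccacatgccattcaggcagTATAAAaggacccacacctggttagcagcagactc
The Krtap4-2 promoter held 2 matches, beginning 61 and 29 bases before the start. Those of Krtap24-1 and Krtap22-2 held 1 match each, 27 and 35 bases before it, and these letters were not in the window shown for Krtap19-4. That window holds the similar letters TATATAA, which were not searched for, so a TATA box is not shown to be absent.

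Values are log2 expression after robust multi-array averaging, a scale on which a difference of 1 is a doubling. Array medians over all features lay between 2.86 and 3.04, and group means no higher than these were taken as near background. A change that starts or ends there has an uncertain size. This held for 42 of the 51 members in CD-vehicle, 41 in CD-IMQ, 20 in HFD-vehicle and 42 in HFD-IMQ mice. The tissue label was checked with epidermal genes: the mean of Krt14, Krt1, Krt10, Flg and Lor lay between 8.20 and 10.62 in the 20 mice. Array HFD-vehicle 3 stood apart from its group. It held 42.8% of the squared distance of the 5 arrays from the group mean over all genes and 73.9% over the Krtap members. The main counts and medians of gene groups that involve it are therefore given with and without it. In whole skin, fewer cells of a type and less RNA per cell cannot be told apart.

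Krtap transcripts were high in 1 mouse, raised in a second and low in most others. The mean over the 51 members was 2.25, 2.30, 2.17, 2.10 and 2.18 in CD-vehicle mice 1 to 5 and 2.04, 2.10, 2.09, 2.14 and 2.14 in CD-IMQ mice. It was 3.42, 2.42, 6.88, 2.73 and 2.45 in HFD-vehicle mice and 2.53, 2.06, 2.12, 2.03 and 2.04 in HFD-IMQ mice. All 5 HFD-vehicle mice were above all 5 CD-vehicle mice, whereas HFD-IMQ mouse 1 lay within the range of the HFD-vehicle group. Group means were 2.20 ± 0.08 (SD, n = 5) in CD-vehicle, 2.10 ± 0.04 (SD, n = 5) in CD-IMQ, 3.58 ± 1.89 (SD, n = 5) in HFD-vehicle and 2.16 ± 0.21 (SD, n = 5) in HFD-IMQ mice. HFD-vehicle mouse 3 had the highest value of all 20 arrays in 48 of 51 members, which was so for 10.9% of all genes. It exceeded the next highest array by at least 1 in 46 members and by at least 3 in 30. The exceptions to its first rank were Krtap13, Krtap5-3 and Krtap5-4.

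**Figure D1:**
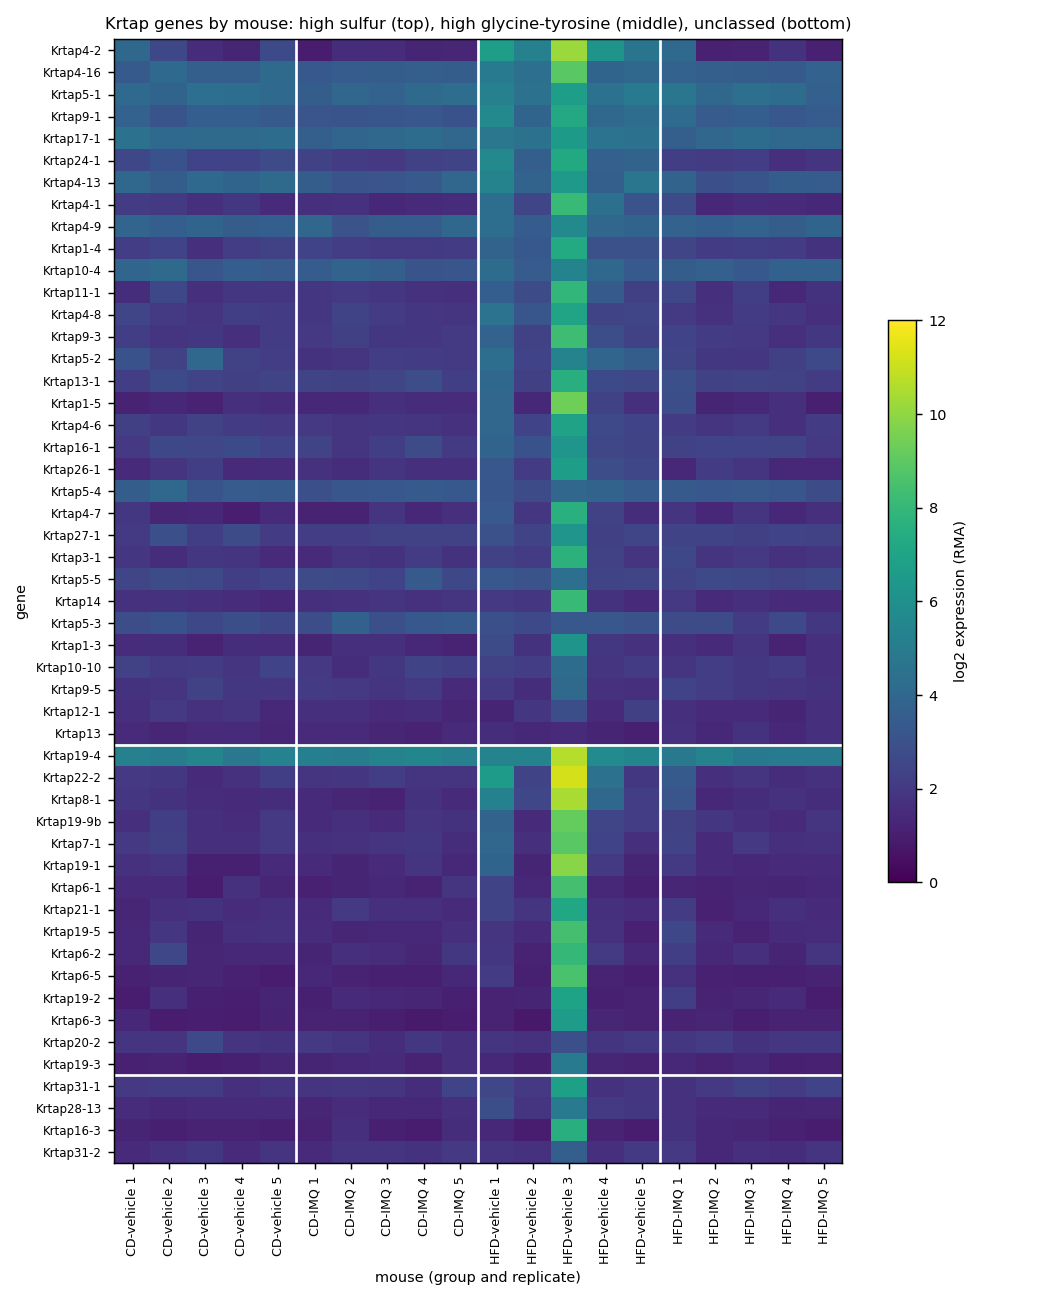
Log2 expression (colour) of the 51 Krtap genes (vertical axis, grouped as high sulfur, high glycine-tyrosine and unclassed and ordered by HFD-vehicle mean) in the 20 mice (horizontal axis, groups divided by white lines). The column of HFD-vehicle 3 is brightest in 48 of the 51 genes, and that of HFD-vehicle 1 comes next in most.

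In both protein classes mouse 3 was highest, followed by mice 1 and 4. The high-sulfur mean was 3.76, 2.82, 6.42, 3.07 and 2.87 in HFD-vehicle mice 1 to 5, and between 2.41 and 2.57 in CD-vehicle mice. The high glycine-tyrosine mean was 3.01, 1.77, 8.17, 2.31 and 1.76 in HFD-vehicle mice, and between 1.63 and 1.96 in CD-vehicle mice. The high-sulfur means of the groups therefore did not overlap, while HFD-vehicle mice 2 and 5 lay within the CD-vehicle range for the high glycine-tyrosine genes. In HFD-vehicle mouse 3 the median difference from the CD-vehicle mean was 4.23 (range 0.05 to 7.98) over high-sulfur members, 6.89 (range 0.97 to 9.37) over high glycine-tyrosine members and 4.17 over the unclassed. The same median for the middle of the other 4 HFD-vehicle mice was 0.40, 0.13 and 0.07. A difference between the classes was not tested.

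**Figure D2:**
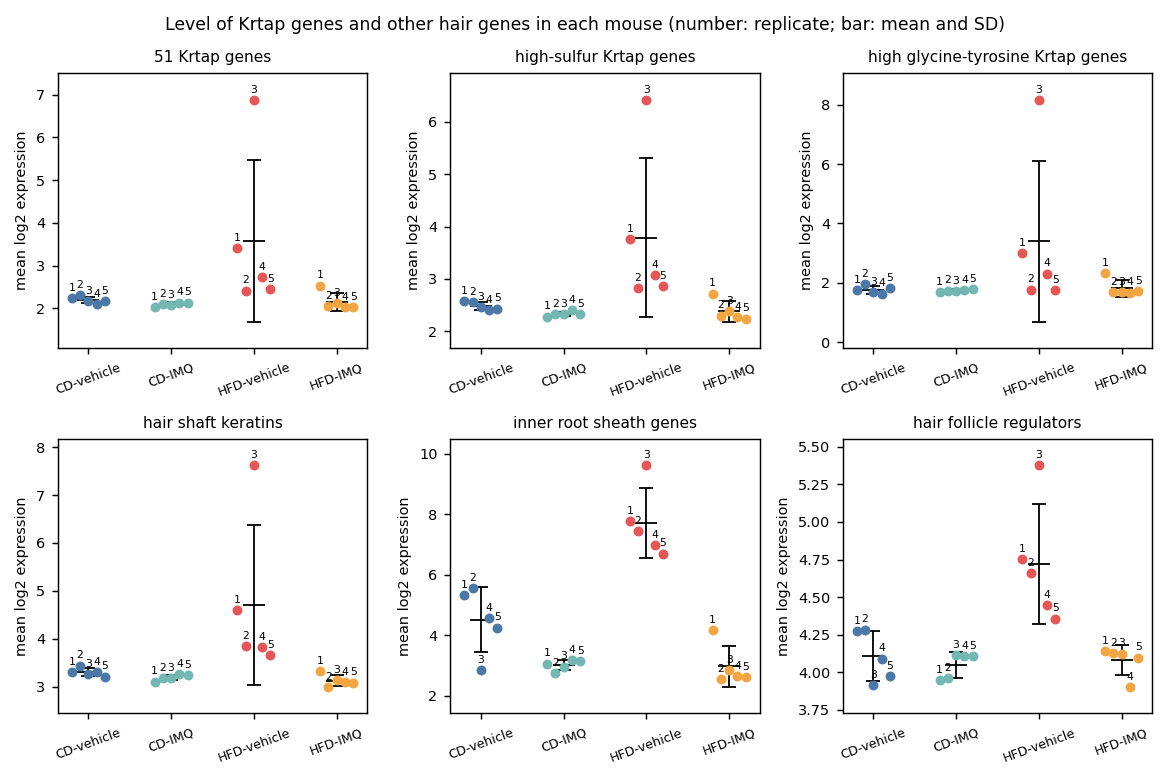
Mean log2 expression (vertical axis) of Krtap genes and of 3 other hair gene lists in each mouse (points, numbered by replicate) of the 4 groups (horizontal axis), with bars for mean and SD (n = 5). HFD-vehicle 3 is the highest point in all 6 panels. All HFD-vehicle mice lie above all CD-vehicle mice in every panel but that of the high glycine-tyrosine genes. In the inner root sheath panel the other 4 HFD-vehicle mice are at 6.70 to 7.77 and the CD-vehicle mice at 2.84 to 5.56.

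HFD-vehicle mouse 1 was the second highest of its group in 40 members, and with mouse 3 left out it was the highest of the remaining 19 arrays in 32. HFD-IMQ mouse 1 was the highest of its own group in 34 members. There were 16 members that stayed below the lowest array median on every array but that of HFD-vehicle 3: 5 high-sulfur, 8 high glycine-tyrosine and 3 unclassed. Krtap19-2 was one of them, at 1.13, 1.26, 6.98, 1.05 and 1.17 in HFD-vehicle mice and between 0.94 and 1.59 in CD-vehicle mice. Krtap14, at 1.98, 1.89, 8.12, 1.74 and 1.47 against 1.39 to 1.73, was another. Krtap13 was below the lowest array median on all 20 arrays. For the 16 members the signal thus stood above background in a single animal.

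Counting mice gives the spread of the rise within the group. In 12 members all 5 HFD-vehicle mice exceeded every CD-vehicle mouse, in 6 members 4 mice did, in 13 members 3, in 11 members 2, in 8 members 1 and in Krtap5-4 none. All 5 mice did so in 1.64% of all genes. The 12 were Krtap1-3, Krtap1-4, Krtap4-1, Krtap4-2, Krtap4-6, Krtap5-1, Krtap8-1, Krtap9-1, Krtap9-3, Krtap17-1, Krtap24-1 and Krtap28-13. Of these 10 were high-sulfur genes and 8 lay on chromosome 11.

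**Figure D3:**
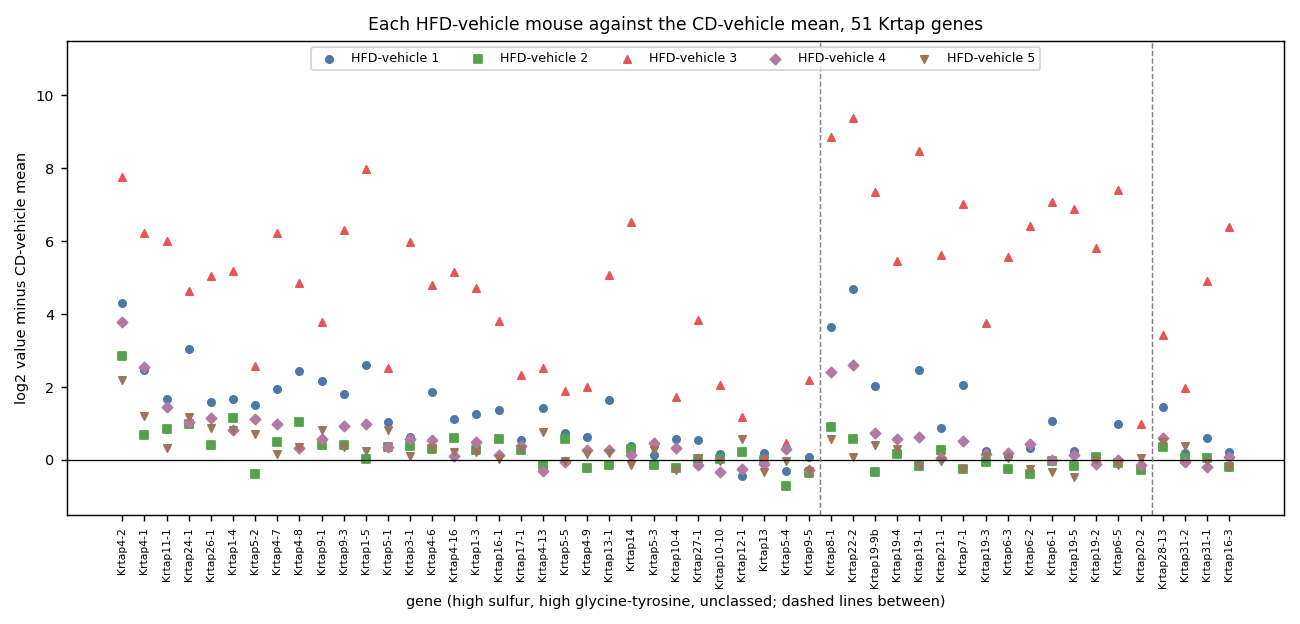
Log2 value of each HFD-vehicle mouse minus the CD-vehicle mean (vertical axis) for the 51 Krtap genes (horizontal axis, by class and then by the median of the 4 mice other than mouse 3). Mouse 3 is far above the line at 0 in nearly all genes. The order itself places genes in which the other mice are higher, such as Krtap4-2 and Krtap8-1, at the left of each class. Values at least 1 above the line occur in 26 genes for mouse 1, 8 for mouse 4 and 3 each for mice 2 and 5.

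The first comparison asked whether imiquimod changed the family in HFD-fed mice. With limma and a Benjamini-Hochberg adjusted p below 0.05 over all genes, 11 of 51 members fell in HFD-IMQ against HFD-vehicle mice and none rose, where 2.24% of all genes were called lower and 3.65% higher. The members' median log2 change was -1.40 (range -4.76 to 0.24), with 50 of 51 below 0. The medians over all genes lay between -0.01 and 0.02 in the 5 comparisons. The 2 groups did not overlap in 8 members, all lower in HFD-IMQ mice, against 2.39% of all genes. All 8 came from families 1, 4, 17, 24 and 28. The called members comprised 10 high-sulfur genes, none of the high glycine-tyrosine genes, 7 of which had an unadjusted p below 0.05, and the unclassed Krtap28-13. The fit shares 1 spread over the 4 groups, while in most members HFD-vehicle mice varied more than the others. For Krtap1-4 the SD was 1.85 in HFD-vehicle mice and 0.14 to 0.29 in the other groups. Standard errors and adjusted p for HFD-vehicle comparisons can therefore be too small for such members. In comparisons without HFD-vehicle mice they can be too large. The count was 3 when only the 2 groups compared were fitted, namely Krtap4-2, Krtap24-1 and Krtap5-2, and 6 with trend and robust eBayes. The other calls of members in this comparison ended in the 2-group fit.

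Family 4, counted here as high sulfur and part of the chromosome 11 cluster, had 4 of its 8 members called, out of 11 calls in all. Without HFD-vehicle mouse 3, 6 of them were called. Krtap4-2 was at 6.73, 5.28, 10.20, 6.22 and 4.64 in HFD-vehicle mice 1 to 5 and at 4.11, 1.11, 1.22, 1.76 and 1.11 in HFD-IMQ mice. Every HFD-vehicle mouse was above every HFD-IMQ mouse, and HFD-IMQ mouse 1 was the sole treated animal above background. The gene fell by 4.76 ± 0.74 (log2 change ± SE) from 6.62 ± 2.16 to 1.86 ± 1.29 (SD, n = 5), with a limma adjusted p of 0.00022. Leaving out any 1 array kept this call. Krtap4-1 was at 4.32, 2.53, 8.08, 4.39 and 3.06 in HFD-vehicle mice and at 2.75, 1.34, 1.53, 1.5 and 1.33 in HFD-IMQ mice. The groups overlapped through HFD-vehicle mouse 2 and HFD-IMQ mouse 1, and the limma change was -2.79 ± 0.61 (adjusted p = 0.00586).

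Krtap4-8 was at 4.58, 3.20, 7.01, 2.46 and 2.52 in HFD-vehicle mice and between 1.67 and 2.11 in HFD-IMQ mice, a fall without overlap. Its limma change was -2.07 ± 0.53 (adjusted p = 0.0181), and it was no longer called without HFD-vehicle mouse 1 (adjusted p = 0.0517). Krtap4-13, above the array medians in all HFD-vehicle mice, was at 5.38, 3.80, 6.47, 3.63 and 4.72 in HFD-vehicle and 3.81, 2.92, 3.14, 3.56 and 3.47 in HFD-IMQ mice. Its groups overlapped, and limma gave -1.42 ± 0.35 (adjusted p = 0.0154). With only the 2 groups fitted its limma adjusted p was 0.0875. Krtap4-16, one of the 3 high-sulfur members with the highest mean over all arrays, was at 4.91, 4.39, 8.95, 3.88 and 4.0 against 3.42 to 3.78, without overlap. It was not called (-1.60 ± 0.58, limma adjusted p = 0.126). Krtap4-6 (-1.73, limma adjusted p = 0.0535) did not overlap either and was not called.

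**Figure D4:**
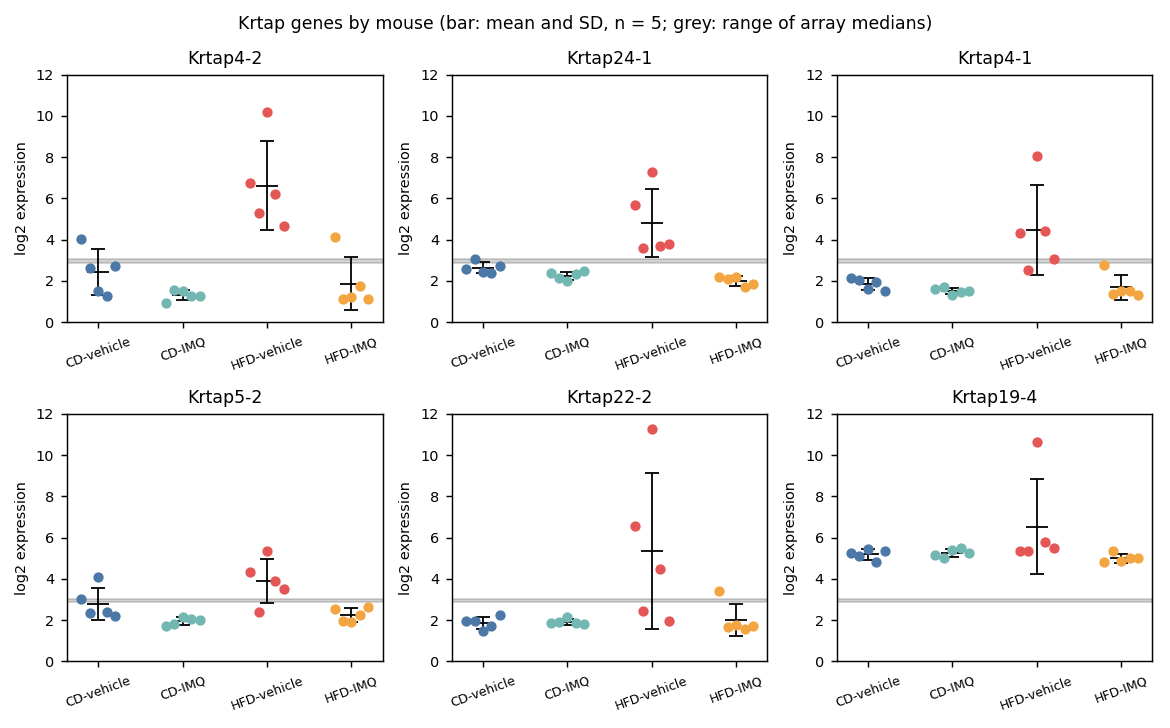
Log2 expression (vertical axis) of 6 Krtap genes in the 5 mice (points) of each of the 4 groups (horizontal axis), with bars for mean and SD and a grey band for the range of array medians, 2.86 to 3.04. Krtap4-2 and Krtap24-1 lie above the band in all HFD-vehicle mice, whereas Krtap22-2 does so in 3 of them, and the other 4 HFD-vehicle mice lie between 5.36 and 5.77 for Krtap19-4, against 10.65 in mouse 3.

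The calls on chromosome 11 outside family 4 were Krtap1-4, Krtap9-1 and Krtap17-1. Krtap1-4 was at 3.84, 3.32, 7.35, 2.99 and 2.99 in HFD-vehicle mice and at 2.51, 2.11, 2.25, 2.13 and 1.77 in HFD-IMQ mice. All HFD-vehicle mice were higher, and limma gave -1.94 ± 0.51 (adjusted p = 0.0237). Without HFD-IMQ mouse 5 its adjusted p was 0.0632. Krtap9-1 changed by -1.44 ± 0.41 (limma adjusted p = 0.0365). It was read at 5.65, 3.89, 7.26, 4.06 and 4.30 against 4.19, 3.45, 3.60, 3.26 and 3.47, so that HFD-IMQ mouse 1 overlapped the HFD-vehicle group. Its call ended without HFD-vehicle mouse 1 or any of HFD-IMQ mice 2 to 5 (adjusted p between 0.0670 and 0.0962). Krtap17-1, also a gene of the shaft matrix, was at 4.76, 4.48, 6.54, 4.59 and 4.53 against 3.63, 3.97, 4.22, 4.06 and 4.07. The groups did not overlap and differed by -0.99 ± 0.26 (limma adjusted p = 0.0248). That call ended without HFD-IMQ mouse 1 (adjusted p = 0.0769).

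On chromosome 16, Krtap24-1 was at 5.67, 3.61, 7.28, 3.67 and 3.81 in HFD-vehicle mice and at 2.21, 2.11, 2.19, 1.68 and 1.84 in HFD-IMQ mice. No mouse of either group came near the other, and it fell from 4.81 ± 1.63 to 2.01 ± 0.24 (SD, n = 5). The log2 change was -2.80 ± 0.45 (limma adjusted p = 0.000334), and no single array ended the call. Its neighbour Krtap26-1 was at 3.27, 2.11, 6.75, 2.84 and 2.57 against 1.39, 2.12, 1.85, 1.40 and 1.40. HFD-vehicle mouse 2 and HFD-IMQ mouse 2 overlapped, and limma gave -1.88 ± 0.52 (adjusted p = 0.0314). The Krtap26-1 call ended without any one of HFD-IMQ mice 1, 3, 4 or 5 (adjusted p between 0.0504 and 0.0747).

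The 5 members of family 5 lie on chromosome 7. Krtap5-2 was at 4.31, 2.41, 5.37, 3.92 and 3.53 in HFD-vehicle mice and at 2.53, 1.95, 1.91, 2.27 and 2.64 in HFD-IMQ mice, with HFD-vehicle mouse 2 inside the treated range. Its change of -1.65 ± 0.38 (limma adjusted p = 0.00812) was kept when any 1 array was left out. Krtap5-1 was the member closest to the threshold without passing it (-0.95 ± 0.29, limma adjusted p = 0.0519). Krtap28-13, the sole member on chromosome 1, was the called member closest to the threshold. It was at 2.89, 1.81, 4.88, 2.04 and 1.94 against 1.26 to 1.73, a difference of -1.26 ± 0.36 (limma adjusted p = 0.0369). Both group means of Krtap28-13 were near background. Its call ended without HFD-vehicle mouse 1 or any one of the 5 HFD-IMQ mice (adjusted p between 0.0524 and 0.0817).

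The high glycine-tyrosine members varied widely among HFD-vehicle mice, and none was called. Krtap22-2 was at 6.57, 2.45, 11.24, 4.47 and 1.94 in HFD-vehicle mice and at 3.41, 1.66, 1.79, 1.59 and 1.71 in HFD-IMQ mice. HFD-vehicle mice 2 and 5 were lower than HFD-IMQ mouse 1, and limma gave -3.30 ± 1.04 (adjusted p = 0.0651). Krtap8-1 was at 5.28, 2.54, 10.49, 4.06 and 2.22 against 3.18, 1.33, 1.59, 1.71 and 1.59. It changed by -3.04 ± 0.93 (limma adjusted p = 0.0545), with the same mice overlapping. Krtap19-4 was at 5.38, 5.36, 10.65, 5.77 and 5.49 in HFD-vehicle mice and between 4.83 and 5.38 in HFD-IMQ mice. Mouse 3 was far above the rest, while mice 4 and 5 lay slightly above all CD-vehicle and HFD-IMQ mice. The change was -1.52 ± 0.63 (limma adjusted p = 0.202), and without mouse 3 it was smaller and called, as given further on. The 4 members of family 6 were at 6.65 to 8.55 in HFD-vehicle mouse 3 and at 0.84 to 2.57 on the other 19 arrays. Of the 15 high glycine-tyrosine members 14 exceeded the CD-vehicle mean by at least 1 in mouse 3, against 6 in mouse 1, 2 in mouse 4 and none in mice 2 and 5. The exception in mouse 3 was Krtap20-2, at 2.95.

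The second comparison set HFD-vehicle against CD-vehicle mice, to see whether diet alone shifted the family. It shares the HFD-vehicle arrays with the comparison above, so the same high values enter both. Here 5 of 51 members were called higher and none lower by limma, where 1.22% of all genes were called higher and 0.956% lower. The median log2 change was 1.34, with 49 of 51 members above 0. The groups did not overlap in 12 members, against 1.64% of all genes. All 5 called members were high-sulfur genes, and all 5 were also called in the comparison within HFD-fed mice. The count was 1 with only these 2 groups fitted, 2 with trend and robust eBayes, and 3 with arrays centred, dim genes left out or array weights. Genes of other skin cells also moved with diet. Of 5 epidermal genes Krt14 (1.02 ± 0.23), Krt1 (1.25 ± 0.24) and Flg (0.99 ± 0.26) were called higher, and Krt10 (0.40) and Lor (0.43) were not. Their mean per mouse was 8.20 to 9.25 in CD-vehicle mice and 9.97, 9.81, 9.14, 10 and 9.51 in HFD-vehicle mice 1 to 5, where mouse 3 was lowest and alone overlapped the CD-vehicle mice. Of 7 cell division genes Ccnb2 and Plk1 were called higher, with list means of 3.72 to 4.84 in CD-vehicle and 4.96 to 5.25 in HFD-vehicle mice. Without HFD-vehicle mouse 3 these counts were 2 and 1. The part of either list in the Krtap values was not tested.

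Krtap4-2 was at 4.05, 2.62, 1.53, 1.25 and 2.72 in CD-vehicle mice, so that all HFD-vehicle mice were above it. It rose by 4.18 ± 0.74 (limma adjusted p = 0.00349), and no single array ended this call. Krtap4-1 was between 1.5 and 2.15 in CD-vehicle mice and rose by 2.63 ± 0.61 (limma adjusted p = 0.0248). Leaving out CD-vehicle mouse 3, CD-vehicle mouse 5 or HFD-vehicle mouse 1 ended it (adjusted p between 0.0526 and 0.0663). Krtap24-1 was between 2.40 and 3.04 in CD-vehicle mice and rose by 2.17 ± 0.45 (limma adjusted p = 0.0109), a call that was kept when any 1 array was left out. Krtap1-4 (1.93 ± 0.51, limma adjusted p = 0.0494) and Krtap9-1 (1.55 ± 0.41, limma adjusted p = 0.0475) passed narrowly. They lost the call in 16 and 15 of the 20 analyses that each left out 1 array, with adjusted p up to 0.136 and 0.126. Among the high glycine-tyrosine members, Krtap22-2 differed by 3.46 ± 1.04 (limma adjusted p = 0.0850) and Krtap8-1 by 3.28 ± 0.93 (limma adjusted p = 0.0661), and none was called. For Krtap8-1 all 5 HFD-vehicle mice lay above the CD-vehicle range of 1.44 to 1.92.

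Without HFD-vehicle mouse 3 the changes were smaller and more members were called. In HFD-IMQ against HFD-vehicle mice 17 members were then called lower, including all 11 of the first fit, while 2.07% of all genes were called lower. The median log2 change was -0.50 instead of -1.40, and 42 members were below 0. The members added were Krtap4-6, Krtap4-16, Krtap8-1, Krtap9-3, Krtap11-1 and Krtap19-4. By class the 17 were 14 high-sulfur, 2 high glycine-tyrosine and 1 unclassed. Krtap19-4, for instance, changed by -0.49 ± 0.14 (limma adjusted p = 0.0489). In HFD-vehicle against CD-vehicle mice 10 members were called higher, including the 5 above, while 0.843% of all genes were. The median log2 change was 0.43 instead of 1.34, and the added members were Krtap8-1, Krtap9-3, Krtap11-1, Krtap26-1 and Krtap28-13. By class the 10 were 8 high-sulfur, 1 high glycine-tyrosine and 1 unclassed. Krtap4-2 still changed by -3.86 ± 0.55 (limma adjusted p = 8.46e-05) with imiquimod in HFD-fed mice and by 3.28 ± 0.55 (limma adjusted p = 0.00170) with diet. The groups did not overlap in 8 members lower with imiquimod and 12 higher with diet, against 3.32% and 2.3% of all genes. Mouse 3 was the highest array in 48 members, and leaving out the highest array cannot end such a separation. These counts therefore do not test the influence of mouse 3. Leaving out HFD-vehicle mouse 2 also gave 17 members lower with imiquimod, and leaving out HFD-IMQ mouse 5 gave 7. The count for diet, 5 with all arrays, moved more easily. It was 11 without HFD-vehicle mouse 2 or 5, 8 without HFD-vehicle mouse 4, and 2 without HFD-vehicle mouse 1 or CD-vehicle mouse 3 or 5. It was 3 without CD-vehicle mouse 1, 2 or 4, any CD-IMQ mouse, or HFD-IMQ mouse 1, 2, 3 or 5.

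**Figure D5:**
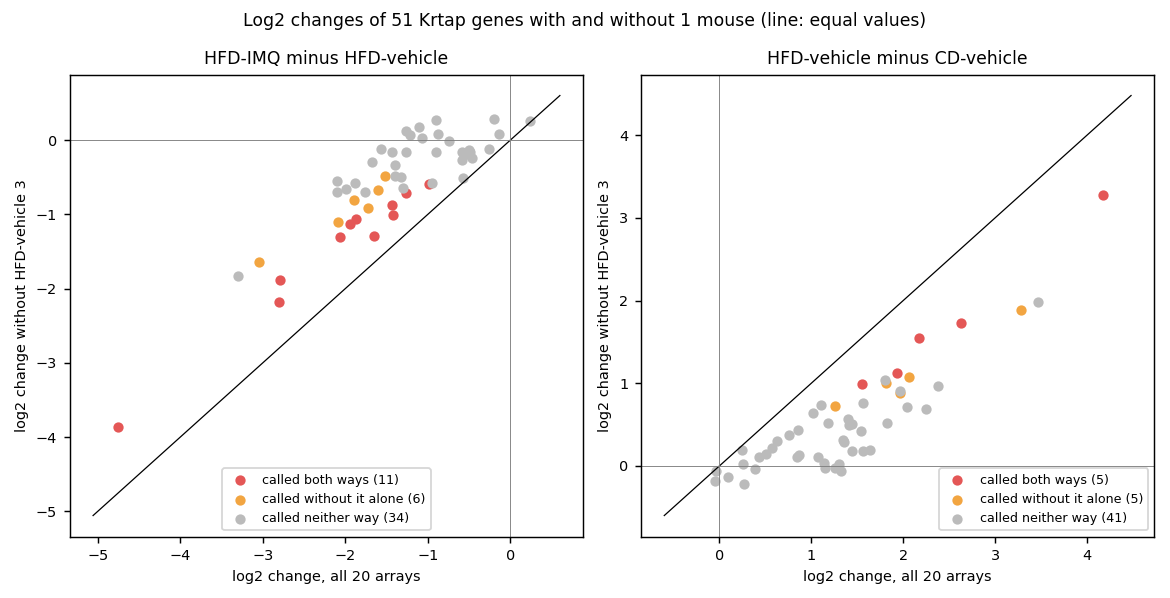
Log2 change of each of the 51 Krtap genes without HFD-vehicle 3 (vertical axis) against the change with all 20 arrays (horizontal axis), for HFD-IMQ minus HFD-vehicle (left) and HFD-vehicle minus CD-vehicle (right), coloured by whether limma called the gene. Most points lie nearer to 0 than the line of equal values, and every gene called with all arrays is also called without that mouse.

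In CD-fed mice 42 of the 51 members started near background, and limma called no change with imiquimod. The counts were 0 higher and 0 lower of 51 (2 at an unadjusted p below 0.05), where 3.91% of all genes were called higher and 7.02% lower. The median log2 change was -0.06, with 34 members below 0. Standard errors here, and between the imiquimod-treated groups, share the wide HFD-vehicle spread and can be too large for many members. Krtap4-2 was at 0.95, 1.56, 1.5, 1.25 and 1.27 in CD-IMQ mice, below CD-vehicle mice 1, 2 and 5 and overlapping mice 3 and 4. Its change of -1.13 ± 0.74 was not called (limma adjusted p = 0.385). Krtap5-2 was the sole member whose groups did not overlap, against 5.1% of all genes that were lower in this way. It was at 3.02, 2.35, 4.08, 2.38 and 2.19 in CD-vehicle mice and at 1.74, 1.82, 2.17, 2.07 and 2.03 in CD-IMQ mice (-0.84 ± 0.38, limma adjusted p = 0.176).

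Between the imiquimod-treated groups, limma called 0 of 51 members and 0 of all genes (0% in either direction), with 1 member at an unadjusted p below 0.05. The members' median log2 change was 0.09. The member was Krtap5-3, at 2.84, 3.72, 2.92, 3.31 and 3.39 in CD-IMQ mice and at 2.80, 2.75, 2.14, 2.65 and 1.96 in HFD-IMQ mice. Its groups did not overlap, which was so for 0.676% of all genes in this direction, and the difference was -0.78 ± 0.18 (limma adjusted p = 0.255). Krtap4-2 differed by 0.55 ± 0.74 (limma adjusted p = 0.838) through HFD-IMQ mouse 1.

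The interaction tested whether the imiquimod effect differed between diets. Limma called 0 of 51 members in either direction (12 at an unadjusted p below 0.05), where 0.189% of all genes were called lower and 0.473% higher. The median term was -1.26, with 48 members below 0, and -0.40 with 40 below 0 when HFD-vehicle mouse 3 was left out. With all arrays the terms of Krtap4-2 (-3.63 ± 1.05, limma adjusted p = 0.0962), Krtap24-1 (-2.42 ± 0.64, adjusted p = 0.0770) and Krtap5-3 (-1.02 ± 0.25, adjusted p = 0.0585) were not called. The difference in calls between the diets is therefore not shown as a difference in effect with all arrays. Without HFD-vehicle mouse 3, Krtap1-4 (-1.12 ± 0.24) and Krtap24-1 (-1.80 ± 0.39) were called, each with a limma adjusted p of 0.0286, where 0.32% of all genes were called lower. Leaving out CD-vehicle mouse 2, CD-IMQ mouse 1 or HFD-vehicle mouse 4 gave 1 call each.

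Genes that act with the family in the hair shaft were read from lists chosen by role. Hair shaft keratins, the filament partners of these proteins, had 15 of 16 genes measured. Limma called 6 lower with imiquimod in HFD-fed mice and 4 higher with diet in vehicle-treated mice, with median log2 changes of -1.58 and 1.39. Without HFD-vehicle mouse 3 the counts were 7 and 5 and the medians -0.59 and 0.63. Krt35, an early keratin of the cortex and cuticle, was at 7.01, 6.49, 8.34, 5.84 and 5.51 in HFD-vehicle mice and at 3.70, 3.41, 3.50, 4.14 and 3.11 in HFD-IMQ mice. It fell by 3.07 ± 0.38 (limma adjusted p = 1.5e-05) with no overlap. The list mean was 4.6, 3.84, 7.62, 3.83 and 3.66 in HFD-vehicle mice, with mouse 3 again highest.

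The inner root sheath, the sleeve that guides the growing shaft, is marked by Krt25 to Krt28, Krt71 to Krt74 and Tchh. Of these 9 genes 8 were called lower with imiquimod in HFD-fed mice (median log2 change -5.13) and 8 higher with diet (median 3.48). In CD-fed mice 5 were called lower (median -1.51), and 6 had a called interaction. Without HFD-vehicle mouse 3 these counts were 8, 8, 6 and 6. The medians for imiquimod in HFD-fed mice and for diet were then -4.68 and 3.05. Tchh, which encodes trichohyalin, was at 9.87, 9.72, 11.40, 9.42 and 9.34 in HFD-vehicle mice and at 6.07, 2.48, 2.41, 2.05 and 2.10 in HFD-IMQ mice. All HFD-vehicle mice were high, and no HFD-IMQ mouse reached them. In CD-vehicle mice Tchh was at 7.80, 7.54, 1.84, 6.25 and 6.89, where mouse 3 was low and the other 4 clearly above background. The list mean of HFD-IMQ mouse 1 was 4.17, against 2.56 to 2.86 in the rest of its group. The part of these levels in the Krtap values was not tested.

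Among 8 other structural genes of the shaft, limma called 5 lower with imiquimod in HFD-fed mice and 4 higher with diet (5 and 5 without HFD-vehicle mouse 3), with medians of -1.89 and 1.65 (-1.32 and 1.08 without it). S100a3, a calcium-binding protein of the cuticle, went from 7.38 ± 1.26 to 3.24 ± 0.53 (SD, n = 5), and Prr9, a proline-rich protein gene, from 7.21 ± 1.40 to 2.62 ± 0.70 (SD, n = 5). Dsg4, the desmosomal cadherin of the shaft cortex, fell by 3.64 ± 0.42. Tgm3, a transglutaminase also made in the upper epidermis, rose instead in both diets, by 1.36 ± 0.30 in HFD-fed and 2.27 ± 0.30 in CD-fed mice. Of 15 regulators of the follicle measured, 8 were called lower with imiquimod in HFD-fed mice and 5 higher with diet (8 and 4 without HFD-vehicle mouse 3). Their medians were -0.68 and 0.51 (-0.59 and 0.34 without it). In HFD-fed mice 3 of the 15 were higher with imiquimod, and 0 were called higher. Without HFD-vehicle mouse 3 the latter count was 1. Hoxc13, a homeobox factor of the shaft precursors known to control hair keratin and Krtap genes, was at 4.11, 3.96, 4.75, 3.35 and 3.71 in HFD-vehicle and between 2.68 and 2.98 in HFD-IMQ mice. It fell by 1.09 ± 0.19 (limma adjusted p = 0.00074) without overlap, to a level near background, and it was 0.98 ± 0.19 higher in HFD-vehicle than in CD-vehicle mice (limma adjusted p = 0.00661). Lef1, the partner of beta-catenin in matrix cells, fell by 1.46 ± 0.27, and Msx2, a homeobox factor of the same cells, by 1.34 ± 0.25. Foxn1, another factor needed for shaft differentiation, was not called in any comparison; its value of 5.41 in HFD-vehicle mouse 3 compared with 3.19 to 3.69 in the rest of that group.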

How the data were processed

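Skin RNA of 20 mice, 300 ng each, was labelled for Affymetrix arrays, per the labels' protocols. The deposited values are log2 expression from RMA (background subtraction, quantile normalisation, probe summary) with the affy package, per the submitters' processing notes. Joint normalisation, scan batches, software versions and genome build: not given in the sources used here. RMA compresses low values, so changes near background are understated. Precision is limited by 5 arrays per group. All value columns were used (0 left out).

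Of 41345 features 23521 carried 1 gene symbol, 1814 several and 16010 none. The first kind gave 22180 genes, tested without a filter on low values. The 4 group means were fitted over all 20 arrays with limma 3.58.1 (R 4.3.3; lmFit, eBayes), with Benjamini-Hochberg adjustment over all genes in each of 5 contrasts and a threshold of 0.05. Tables and figures used Python 3.11.15, numpy 2.4.6, pandas 2.3.3 and matplotlib 3.10.9. Replicate numbers name separate mice and are not stated to pair them, so no pairing was fitted. Of 30 same-number pairs of arrays 4 had a residual correlation above 0.1 (range -0.217 to 0.320). Pairs with different numbers were not computed, so these values cannot exclude a link between same-number mice.

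Members described in full were those called, the 3 per class with the highest mean and those nearest the threshold. Others were picked with their values known. The members and gene lists (100 genes in 12 lists, 96 measured) were chosen with earlier results of these data known. Classes follow family numbers instead of protein composition, since protein sequences were not used here. Promoters come from RefSeq (GRCm38.p6). Alternatives changed the feature, scaling, filter, spread model, block and arrays included. The fit was tested on simulated data with 22180 genes. For imiquimod in HFD-fed mice it recovered 88% of changes of log2 1 and 100% of those of log2 2, with 2 false calls. For the interaction these shares were 62% and 96%, with 8 false calls. These shares are over all genes. The median standard error was 0.528 for the members and 0.136 over all genes. Fewer changes of such sizes can therefore be called in the family. The simulated noise had the same spread in all 4 groups and no outlying array, unlike the Krtap values. Its false calls therefore do not show how many arise in the family.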

Additional observations from a re-analysis of the deposited data

Results flagged for a closer look

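Samples far from the rest of their group were sought with Dixon's ratio, the gap to the nearest mouse divided by the group's range, in the family mean and the named members, 76 groups of 5 in all. Above the critical value of 0.71 lay 15, while chance gives about 1 in 20 groups. The 76 groups are not independent, since all were read in the same 20 mice and 1 odd mouse counts many times. The 15 can therefore not be weighed against that share. HFD-vehicle 3 was the high mouse for the family mean (0.776), Krtap1-4 (0.805), Krtap17-1 (0.865), Krtap26-1 (0.750), Krtap4-16 (0.798), Krtap19-4 (0.922), Krtap31-1 (0.839) and Krtap31-2 (0.790). The unclassed Krtap31-1 was at 2.55, 1.99, 6.84, 1.73 and 1.91 and Krtap31-2 at 1.87, 1.72, 3.65, 1.62 and 2.05 in HFD-vehicle mice. Over all 51 members the ratio was exceeded in 25 in the HFD-vehicle group, each time through a high mouse 3, and in 14 further pairings of a member with one of the other groups.

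HFD-IMQ 1 was the high mouse of its group for the family mean (0.814), Krtap4-1 (0.861), Krtap4-2 (0.784), Krtap22-2 (0.888) and Krtap8-1 (0.797). In CD-vehicle mice the low value of Krtap1-4 in mouse 3 (1.67, ratio 0.717) and in CD-IMQ mice the high value of Krtap22-2 in mouse 3 (2.18, ratio 0.808) exceeded the critical value as well. Both values lie near background.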

How the results depend on the processing

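The 11 members lower with imiquimod in HFD-fed mice became 3 when the fit held only the 2 groups compared and 6 with trend and robust eBayes. The 5 members higher with diet in vehicle-treated mice became 3 with arrays centred on their medians, 3 with dim genes filtered out, 1 with only the 2 groups, 2 with trend and robust eBayes and 3 with array weights. The interaction gave 1 member lower with dim genes filtered out. That filter, above the array median on at least 5 arrays, kept 13 of 51 members, so it favours those high in 1 group; it moved the family mean to 3.56 in CD-vehicle, 3.25 in CD-IMQ and 3.30 in HFD-IMQ mice. Leaving out 1 array gave 7 to 17, 2 to 11 and 0 to 2 members for these 3 counts. With the replicate number as a block the counts were 13, 4 and 0. The numbers are not stated to pair mice. The remaining counts stayed at 0 under all alternatives run. The 16 calls of named members, each refitted under 27 or 28 alternatives, were lost in 82 of 441 refits (18.6%). Changes of named members that were not called passed the threshold in 33 refits. Krtap4-2 was called in both comparisons under all of them, with adjusted p up to 0.00668 and 0.0452. Krtap24-1 lost its call for diet in the 2-group fit alone (adjusted p = 0.107), and Krtap5-2 kept its call within HFD-fed mice throughout. The alternative class borders were not run, since classes were not computed from proteins. The cause of these shifts was not tested.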

Other observations

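Pigment cell genes and follicle bulge genes were read in the same mice. Of 7 melanocyte genes, whose pigment enters the growing shaft, limma called 5 lower with imiquimod in HFD-fed mice and 3 higher with diet in vehicle-treated mice. Without HFD-vehicle 3 the counts were 4 and 2. Tyrp1, a melanin synthesis enzyme, was 5.89 ± 0.96 in HFD-vehicle, 3.50 ± 0.23 in HFD-IMQ and 3.96 ± 0.68 in CD-vehicle mice (SD, n = 5). The melanocyte list mean was 3.96, 4.0, 5.43, 4.01 and 3.71 in HFD-vehicle mice and between 2.83 and 3.24 in HFD-IMQ mice. Of 10 genes listed for the bulge and resting follicle, 9 were called lower and Nfatc1 higher with imiquimod in HFD-fed mice. Without HFD-vehicle 3, 6 were called lower. The 9 included Fgf5 and Krt75, which do not mark the bulge or resting follicle alone. Krt75 was at 8.67 in HFD-vehicle 3 and had the largest fall of the list (-3.35), where the list median was -0.65. In CD-fed mice 3 were called lower: Cd34, Krt15 and Lgr5.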
